A study of Homo sapiens with 13 samples.

Results

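The mitochondrially encoded genes are the 37 genes of the circular mitochondrial chromosome, taken here as every entry of the expression tables whose symbol starts with MT-, 37 of 56831 entries in all. They comprise 13 protein genes, 2 ribosomal RNA (rRNA) genes and 22 transfer RNA (tRNA) genes. Their RNA was measured by RNA-seq of total RNA from H82 and H146, established human small cell lung cancer (SCLC) cell lines of the SCLC-N and SCLC-A subtypes, which are named for the neuroendocrine transcription factors they express. Each line was sequenced untreated, in 3 libraries, and after 14 days of FHD-286 at 100 nM, in 3 libraries of H82 and 4 of H146. FHD-286 is a small molecule that inhibits the ATPases SMARCA2 and SMARCA4, the motors of the SWI/SNF chromatin remodelling complex. Apart from FHD-286 the labels give no difference between the groups of a line. They do not say whether libraries of a group came from separate cultures, so p-values measure the spread between these libraries, which may be technical.

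Mitochondrial DNA is transcribed inside the organelle by a polymerase of its own, POLRMT, from promoters in a non-coding control region. Both strands are copied into long transcripts that run through many genes, and enzymes then cut them apart, largely at the tRNAs that lie between the other genes. The heavy-strand transcript carries both rRNAs, most tRNAs and all protein genes except MT-ND6, which lies on the light-strand transcript with a set of tRNAs. The proteins are subunits of respiratory chain complexes I (MT-ND genes), III (MT-CYB) and IV (MT-CO genes) and of the ATP synthase, complex V (MT-ATP genes). MT-RNR1 and MT-RNR2 give the 12S and 16S RNA of the mitochondrial ribosome. All proteins that transcribe, process and translate these RNAs are encoded in the nucleus, where FHD-286 has its target.

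Levels are in TPM, reads per base of gene scaled to the same total in each library, so a fall of the MT- genes raises every other gene and the reverse. The TPM steps gave back whole read numbers for every MT- gene, and a library held between 386968 and 1379472 reads on the 37 genes. The 6 neuroendocrine markers summed to 994 to 1089 TPM in untreated and 1096 to 1404 in treated H82, and to 3310 to 3784 and 2502 to 2678 in H146. In H82 the sum was carried by UCHL1 (384 to 430 TPM untreated and 808 to 1053 treated). SYP (193 to 212 and 31.5 to 58.1) and CHGA (114 to 159 and 14.3 to 62.5) were lower in every treated library. So was NEUROD1 (224 to 234 and 48.0 to 112). INSM1 was higher in every treated H82 library (12.5 to 15.8 and 32.1 to 296), and NCAM1 overlapped (51.8 to 53.7 and 52.5 to 71.1). In H146 UCHL1 (1933 to 2105 and 1356 to 1536) and INSM1 (1140 to 1405 and 758 to 1018) were lower in every treated library. SYP, CHGA and NCAM1 overlapped between the H146 groups, and NEUROD1 was at most 0.521 TPM. The 3 epithelial markers summed to 1.39 to 3.16 TPM untreated and 7.90 to 63.0 treated in H82, and to 1294 to 1331 and 450 to 534 in H146. The 3 fibroblast markers summed to 0.466 to 0.753 and 3.85 to 27.6 TPM in H82, and to 6.43 to 8.42 and 11.9 to 17.8 in H146. The 3 blood markers summed to at most 9.57 TPM, mostly PTPRC in H146 (3.29 to 6.75), with CD79A reaching 2.93 and the T cell marker CD3E 0.102. The 2 endothelial markers summed to at most 0.561 TPM. Treated replicate 2 of H82 stood apart by INSM1 (296 TPM, against 32.1 and 34.0 in the other treated libraries). Treated replicates 3 and 4 of H146 stood apart from treated replicates 1 and 2 by their rRNA, as described for each result it touches, and also by RN7SL1, a cytoplasmic small RNA (282 and 263 TPM, against 839 and 740). The part of these differences in the results was not tested.

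The MT- genes took a smaller part of the RNA of treated H82 cells than of untreated H82 cells, and their part in H146 varied more between treated libraries than between the groups. In H82 the untreated libraries held 22.1%, 24.1% and 22.1% of TPM in MT- genes, and the treated libraries 14.9%, 12.3% and 14.8%. The groups did not overlap, with a difference of -8.74 percentage points (mean 22.7% ± 1.19 untreated and 14.0% ± 1.45 treated, SD, n = 3 each, two-sided exact permutation p = 0.1, the smallest that 3 against 3 libraries can give). In H146 the untreated libraries held 8.84%, 8.86% and 7.56% and the treated ones 11.4%, 7.09%, 6.45% and 3.82%. Treated replicate 1 was the highest of the line and replicate 4 the lowest, and the difference of -1.22 percentage points was smaller than the treated SD of 3.16 (exact permutation p = 0.543, n = 3 and 4). The MT- share of TPM in H146 differed by -2.64 without treated replicate 1 and by -0.095 without treated replicate 4 (exact permutation p = 0.1 and 1, n = 3 and 3). Without treated replicates 3 and 4 it turned to 0.84 (exact permutation p = 0.9, n = 3 and 2), and over the protein genes alone it was 0.887 (exact permutation p = 0.686, n = 3 and 4). Because TPM divides by gene length, short abundant genes weigh heavily. By an approximate read total built from annotated gene lengths, MT- genes of H82 took 6.35% to 6.92% of reads without the drug and 3.29% to 4.85% with it. For H146 the corresponding ranges were 2.35% to 2.52% and 0.935% to 3.08%. The composition of the H82 libraries also moved with treatment. Genes at 1 TPM or more numbered 21227 to 21772 untreated and 15554 to 16633 treated, and the nuclear RNAs MALAT1 (665 to 808 and 88.6 to 165 TPM) and NEAT1 (39.96 to 45.6 and 4.39 to 13.9 TPM) did not overlap. Their part in the share was not tested. In bulk samples, fewer cells of a kind and less RNA per cell cannot be told apart.

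**Figure D1:**
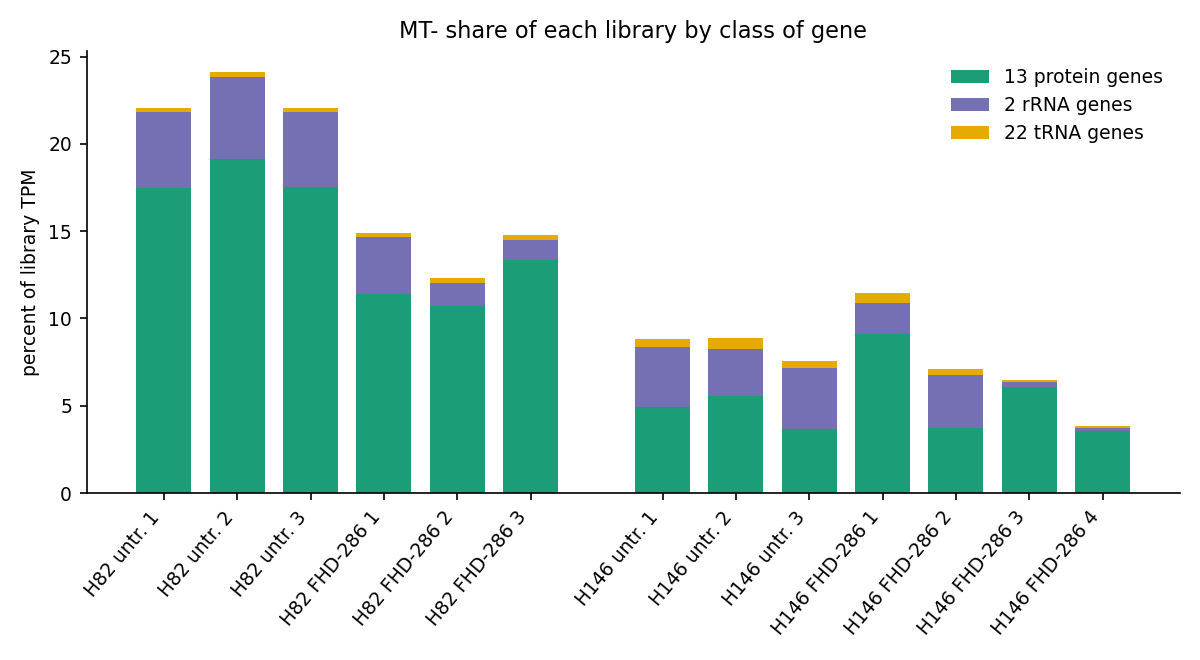
Share of each library's TPM in MT- genes, in percent, stacked by class of gene, for the 13 libraries in order of line, treatment (untr., untreated; FHD-286) and replicate. The H82 bars fall from 22.1% or more to 14.9% or less with FHD-286, and the rRNA part nearly vanishes in treated replicates 3 and 4 of H146 (0.257% and 0.171% of TPM).

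The classes did not move together. In H82 the protein genes went from 17.5%, 19.1% and 17.5% of TPM to 11.4%, 10.7% and 13.3%, with no overlap. The rRNA genes went from 4.37%, 4.71% and 4.32% to 3.24%, 1.33% and 1.16%, also with no overlap, while tRNA genes held 0.221% to 0.303% in untreated and 0.248% to 0.303% in treated libraries. In H146 the protein genes held 4.95%, 5.58% and 3.67% in untreated and 9.11%, 3.70%, 6.09% and 3.57% in treated libraries. The rRNA genes of H146 held 3.42%, 2.69% and 3.504% in untreated and 1.78%, 3.06%, 0.257% and 0.171% in treated libraries, so that treated replicate 2 lay inside the untreated range and replicates 3 and 4 far under it. None of these shares passed a test after adjustment over the 14 shares and ratios tested in both lines (lowest Benjamini-Hochberg adjusted p = 0.2, exact permutation tests).

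Before treatment the lines differed in the level and in the order of their mitochondrial messages. All 13 protein genes were higher in every untreated H82 library than in every untreated H146 library, by 1.69-fold for MT-ND4 to 13.9-fold for MT-CO3. MT-RNR2 was 1.2-fold higher, and MT-TP, the tRNA for proline, had 0.525 times the H146 level. These are descriptive ratios of mean TPM, since the tables of the lines were made separately. In untreated H82 the order ran from MT-CO1 (mean 34030 TPM), MT-CO2 (22860) and MT-CO3 (19160) down to MT-ATP8 (2206), a span of 15.4-fold. The ranges of MT-CO1, MT-CO2 and MT-CO3 did not overlap in that order, while MT-CO3, MT-ND4 and MT-ND2 overlapped each with the next, as did MT-ND6, MT-ND4L and MT-ND3. In untreated H146 MT-ND4 (10790) and MT-CO2 (9958) led, with overlapping ranges, and MT-CO3 was the second lowest (1381), above MT-ATP8 (504). With FHD-286, MT-CO1 led in both lines (23900 in H82 and 9331 in H146) and MT-ATP8 was lowest (1910 and 797).

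**Figure D2:**
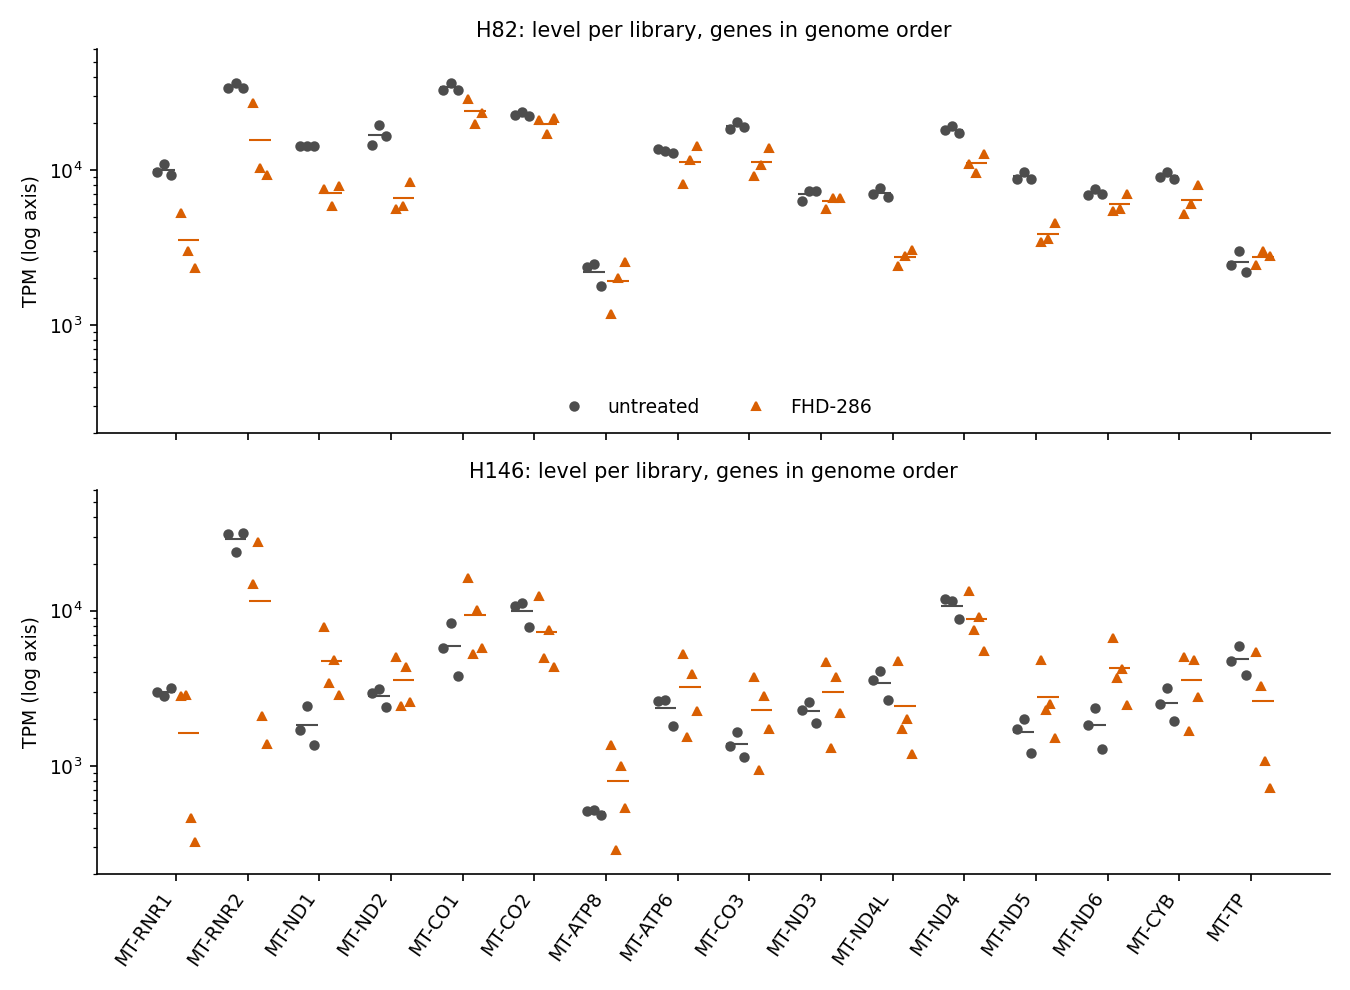
TPM on a log axis for the 13 protein genes, the 2 rRNA genes and MT-TP, in the order of the chromosome, in H82 (top) and H146 (bottom). Circles are untreated and triangles FHD-286 libraries, and short lines are group means. Treated H146 libraries spread 20-fold for MT-RNR2 and 2.06-fold for MT-ND2.

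Gene by gene, treated was tested against untreated within each line by limma on log2(TPM + 1), with Benjamini-Hochberg adjustment over every gene that reached 1 TPM in 3 or more libraries. A fold change is on that scale. In H82, 19 of the 37 genes could be tested, all 15 protein and rRNA genes and 4 tRNAs, and 18 tRNAs did not reach the level. Of the 19, 5 were lower and 1 was higher at an adjusted p under 0.05, against 45.5% lower and 13.1% higher among all 19770 genes tested. The higher gene is MT-TC, which reached the level for testing through its treated libraries alone and so had to differ. All treated libraries lay below all untreated ones for 11 of the 19 (51.4% of all genes) and above for 1 (16.4%). The median log2 fold change was -0.54 over the 13 protein genes and also over the 19 genes, beside -0.56 over all genes tested. Where the MT- genes stood among all genes depended on the level for testing and on the scaling. A gene at 1 TPM only in the 3 untreated libraries could enter the test, and would be lower. With 1 untreated library left out such a gene could not enter, and 16364 to 16488 genes were tested. Of these 4291 to 4440 were lower, and their median was -0.33 to -0.34, beside -0.49 to -0.57 for the MT- genes. A gene at 1 TPM only in the 3 treated libraries could still enter those fits, which also had fewer libraries. With a mean over 2 TPM as the level for testing, 7039 of 16687 genes and 8 of 19 MT- genes were lower. The medians were then -0.47 for all genes and -0.54 for the MT- genes. Scaling by median of ratios gave medians of -0.04 for the MT- genes and -0.14 for all genes, and quantile normalization gave -0.33 and 0.01. The MT- genes that passed were then 1 lower and 2 higher by median of ratios and 3 lower and 2 higher by quantile normalization. Over all genes the calls went from 8996 lower and 2588 higher to 6499 and 4793 by median of ratios, and to 4859 and 5256 by quantile normalization.

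The changes in H82 were unequal among the 7 complex I genes, which encode subunits of the NADH dehydrogenase. MT-ND4L and MT-ND2 had the lowest log2 fold changes of the protein genes, close to each other. MT-ND4L fell from 7037, 7595 and 6690 TPM in untreated libraries to 2421, 2775 and 3043 in treated ones. The groups lay far apart (log2 fold change -1.38, SE 0.27, adjusted p = 0.00432, limma). MT-ND2 had 14546, 19557 and 16481 TPM untreated and 5596, 5865 and 8371 treated (log2 fold change -1.36, SE 0.38, adjusted p = 0.0193, limma). MT-ND5 had 8778, 9709 and 8735 TPM untreated and 3430, 3589 and 4558 treated (log2 fold change -1.24, SE 0.30, adjusted p = 0.0106, limma). MT-ND1 was tight before treatment, at 14244, 14304 and 14195 TPM, and had 7497, 5872 and 7834 TPM after it (log2 fold change -1.02, SE 0.35, adjusted p = 0.0417, limma). In all 4 of these genes no treated library reached an untreated one. At most 1 of the 4 calls held by median of ratios or with no filter, since 1 MT- gene was lower in each. With the replicate number as a block at most 2 held. MT-ND4 had 18143, 19187 and 17272 TPM against 10988, 9526 and 12713, with no overlap but without passing the test (log2 fold change -0.73, adjusted p = 0.158, limma, and 0.0127 without treated replicate 1). MT-ND3 (6310, 7289 and 7322 against 5625, 6609 and 6568 TPM) and the light-strand gene MT-ND6 (6871, 7545 and 6999 against 5419, 5600 and 6959 TPM) overlapped, with log2 fold changes of -0.15 and -0.26 that turned to 0.34 and 0.23 by median of ratios. Together, complex I genes made up 43.5%, 44.6% and 44.3% of protein-gene TPM untreated and 35.9%, 37.2% and 37.5% treated in H82.

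None of the 6 genes of complexes III, IV and V passed the test in H82. MT-CO1, the catalytic subunit of cytochrome c oxidase, had 32852, 36421 and 32824 TPM against 28731, 19712 and 23264. MT-CO2 had 22443, 23707 and 22424 TPM against 20990, 17059 and 21464. MT-CO3 had 18326, 20322 and 18838 TPM against 9103, 10768 and 13869. For these 3 genes, and for the cytochrome b gene MT-CYB (8942, 9757 and 8743 against 5173, 6067 and 7969 TPM), every treated library lay under every untreated one. Their log2 fold changes ran from -0.79 (MT-CO3, adjusted p = 0.142, limma) to -0.21 (MT-CO2, adjusted p = 0.712, limma). MT-CO1 and MT-CO3 passed without treated replicate 1 (adjusted p = 0.0201 and 0.0175, limma). The ATP synthase genes overlapped between the groups. MT-ATP6 had 13707, 13215 and 12913 TPM against 8136, 11615 and 14245. MT-ATP8 had 2373, 2468 and 1776 TPM against 1186, 2013 and 2532.

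The rRNA genes of H82 differed between its treated libraries. MT-RNR1 fell, from 9755, 10880 and 9252 TPM to 5316, 2992 and 2328 (log2 fold change -1.58, SE 0.39, adjusted p = 0.0116, limma). MT-RNR2 had 33988, 36248 and 33908 TPM untreated and 27083, 10257 and 9251 treated. Treated replicate 1 had 2.93-fold the MT-RNR2 of replicate 3, and the gene did not pass the test (log2 fold change -1.34, SE 0.59, adjusted p = 0.088, limma). Without treated replicate 1 the MT-RNR2 change was -1.83 (adjusted p = 0.000318, limma). In that fit 10 of 18 MT- genes were lower, in place of 5 of 19, beside 9957 of 19058 genes in all. Without treated replicate 2, 3 of 18 MT- genes were lower, beside 8187 of 19237 genes in all. MT-ND1 lost its call when any library other than treated replicate 1 was left out (adjusted p 0.0522 to 0.112, limma), and MT-ND2 without treated replicate 2 (adjusted p = 0.0546, limma).

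In H146, 20 of the 37 genes could be tested, the 15 protein and rRNA genes and 5 tRNAs, and 17 tRNAs did not reach the level. Of the 20, 1 was lower and 3 were higher, against 15.5% lower and 32.5% higher among all 19585 genes tested. The lower gene is MT-TF, which entered the test through its untreated libraries. Of the treated ones only replicate 1 reached 1 TPM. All treated libraries lay below all untreated ones for 1 of the 20 (17.3% of all genes) and above for 3 (35.7%). The median log2 fold change was 0.38 over the protein genes and 0.25 over all genes tested. Over the 20 MT- genes it was 0.30, which became -0.02 beside -0.02 for all genes by median of ratios and 0.30 beside 0.06 by quantile normalization. All-gene calls went from 3033 lower and 6356 higher to 4917 and 4165 by median of ratios, and to 4082 and 4648 by quantile normalization. Without treated replicate 1 or 2, 4 of 20 MT- genes in place of 1 were lower, beside 2744 of 18859 and 3729 of 19053 genes in all.

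MT-ND1 and MT-ND6 were the protein genes that rose in H146, and both belong to complex I. MT-ND1 had 1710, 2438 and 1358 TPM untreated and 7849, 3445, 4837 and 2861 treated, so the lowest treated library was above the highest untreated one (log2 fold change 1.30, SE 0.35, adjusted p = 0.0154, limma). MT-ND6 had 1838, 2352 and 1278 TPM untreated and 6635, 3704, 4203 and 2469 treated (log2 fold change 1.18, SE 0.33, adjusted p = 0.0193, limma). The MT-ND6 groups also did not overlap, by a narrow margin between treated replicate 4 and untreated replicate 2. By median of ratios neither call held (0.98 and 0.86, adjusted p = 0.0523 and 0.0715, limma). Without treated replicates 3 and 4 the changes were 1.54 for MT-ND1 (adjusted p = 0.0135, limma) and 1.49 for MT-ND6 (adjusted p = 0.00844, limma). Either call was lost without untreated replicate 1 (adjusted p = 0.0523 and 0.0537, limma) or untreated replicate 3 (adjusted p = 0.076 and 0.0915, limma), which left 1 MT- gene higher. Over all genes 4641 of 18906 and 4287 of 18960 were higher in those fits. Without treated replicate 2, 6 of 20 MT- genes were higher, beside 7480 of 19053 genes in all.

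The other 11 protein genes overlapped between the H146 groups. All 13 were highest among treated libraries in replicate 1, and the lowest was replicate 2 for 7 genes and replicate 4 for 6. MT-ND5 had 1715, 1994 and 1217 TPM untreated and 4829, 2293, 2515 and 1511 treated. MT-ND2 had 2952, 3112 and 2388 against 5024, 2433, 4315 and 2589 TPM. MT-ND3 had 2282, 2590 and 1896 against 4685, 1294, 3741 and 2195 TPM. These 3 complex I genes had log2 fold changes of 0.66, 0.29 and 0.25 and did not pass, though MT-ND5 did without treated replicate 4 (0.91, adjusted p = 0.0462, limma), and by median of ratios those of MT-ND2 and MT-ND3 were -0.03 and -0.07. MT-ND4 had 11937, 11561 and 8872 TPM against 13364, 7482, 9066 and 5535. MT-ND4L had 3561, 4105 and 2651 TPM against 4730, 1736, 2017 and 1183. Their log2 fold changes were -0.35 and -0.69, with adjusted p of 0.353 and 0.204 by limma, and MT-ND4L passed without treated replicate 1 (-1.07, adjusted p = 0.0128).

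For complex IV in H146, MT-CO1 had 5711, 8388 and 3792 TPM untreated and 16201, 5231, 10143 and 5749 treated. MT-CO2 had 10765, 11239 and 7871 TPM against 12454, 4960, 7513 and 4362. MT-CO3 had 1345, 1652 and 1148 TPM against 3723, 934, 2832 and 1716. The log2 fold changes were 0.57 for both MT-CO1 and MT-CO3 and -0.55 for MT-CO2, and none passed. MT-CO2 passed as lower without treated replicate 1 (-0.85, adjusted p = 0.0315, limma) and MT-CO3 as higher without treated replicate 2 (0.94, adjusted p = 0.0174, limma). MT-CYB had 2508, 3179 and 1940 TPM against 5011, 1683, 4778 and 2777. MT-ATP6 had 2631, 2658 and 1808 TPM against 5226, 1533, 3926 and 2256. MT-ATP8 had 509, 519 and 485 TPM against 1372, 287, 992 and 537, with a tight untreated group. Without treated replicate 2, MT-CYB and MT-ATP8 passed as higher (adjusted p = 0.0489 and 0.0375, limma). Treated replicate 3 exceeded replicate 4 by 1.64-fold to 1.85-fold in all 13 protein genes, while replicate 1 exceeded replicate 4 by 1.8-fold to 4.0-fold.

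The rRNA genes of H146 split the treated libraries. MT-RNR2 had 31191, 24037 and 31867 TPM untreated and 14960, 27678, 2108 and 1387 treated. MT-RNR1 had 3002, 2827 and 3169 TPM untreated and 2814, 2872, 463 and 323 treated. Replicates 1 and 2 were close to the untreated MT-RNR1 level and replicates 3 and 4 far under it. The log2 fold changes were -2.29 (SE 0.97, adjusted p = 0.0822, limma) for MT-RNR2 and -1.51 (SE 0.77, adjusted p = 0.135, limma) for MT-RNR1. Without treated replicates 3 and 4 they were -0.50 (adjusted p = 0.224, limma) and -0.08 (adjusted p = 0.696, limma). Without treated replicate 2 they were -3.03 and -1.997 and both passed (adjusted p = 0.00876 and 0.0335, limma).

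**Figure D3:**
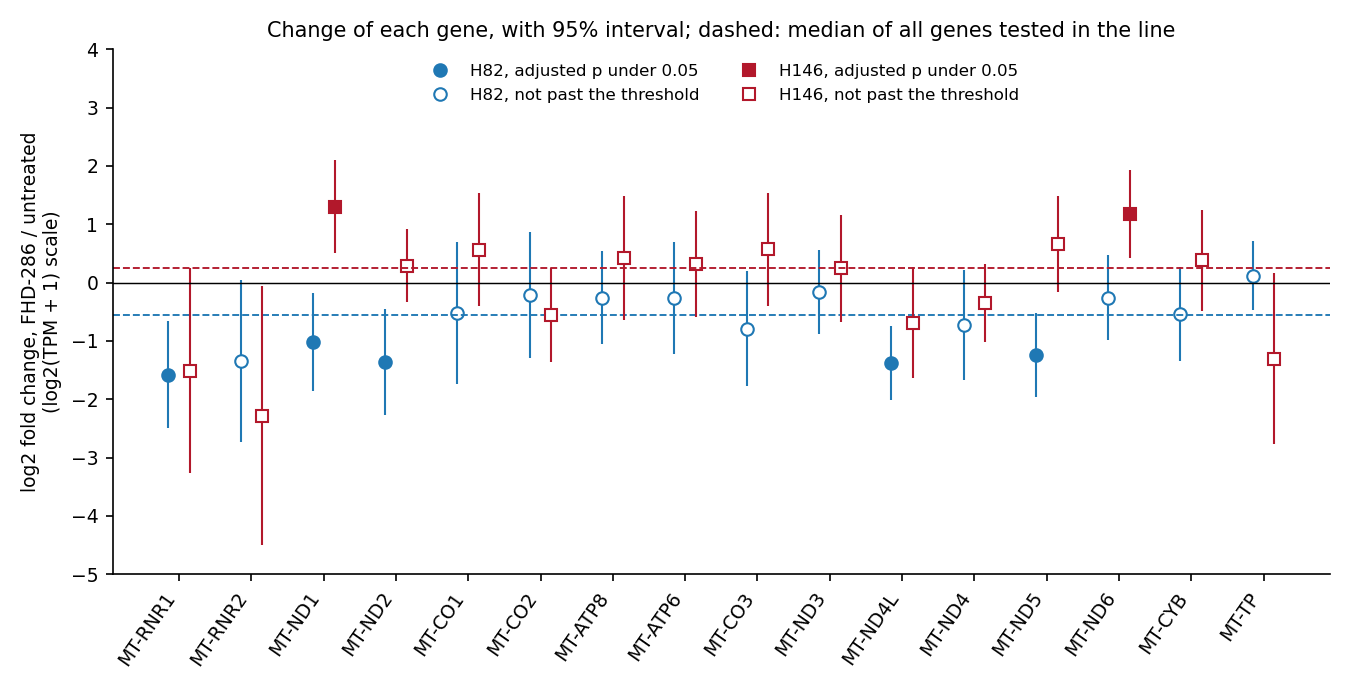
Log2 fold change of each gene with FHD-286, with its 95% interval from limma, in the order of the chromosome, for H82 (blue circles) and H146 (red squares). Filled symbols passed an adjusted p of 0.05 and dashed lines mark the median of all genes tested in each line, -0.56 and 0.25. MT-ND1 lies below zero in H82 (-1.02) and above it in H146 (1.30).

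Of the 20 MT- genes tested for the interaction of line and treatment over all 13 libraries, 4 changed differently in the lines. Each had the more positive change in H146. Among all 24374 genes in that fit the difference was positive for 46.0% and negative for 13.3%. These are the calls on the TPM scale. The difference (change in H146 minus change in H82) was 2.33 for MT-ND1 (SE 0.47, adjusted p = 0.00112, limma). It was 1.91 for MT-ND5 (SE 0.47, adjusted p = 0.00433, limma), 1.65 for MT-ND2 (SE 0.42, adjusted p = 0.00455, limma) and 1.44 for MT-ND6 (SE 0.45, adjusted p = 0.0148, limma). All 4 encode complex I subunits. Without treated replicates 3 and 4 of H146 the 4 differences were 2.57, 2.29, 1.69 and 1.75 and passed the test. By median of ratios the median difference of all genes moved from 0.75 to 0.17, MT-ND1 kept its call (1.51, adjusted p = 0.0192, limma), and the differences of MT-ND2, MT-ND5 and MT-ND6 were 0.84, 1.09 and 0.62 and did not pass (adjusted p = 0.105, 0.0753 and 0.265, limma). In that scaling MT-TP passed with the opposite sign (-2.24, adjusted p = 0.0384, limma).

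Ratios between MT- genes of the same library do not depend on the nuclear genes in the TPM sum. MT-ND6, the only light-strand protein gene, stood higher relative to the other 12 protein genes in every treated library of both lines. In H82 the log2 ratio was -4.61, -4.60 and -4.59 untreated and -4.33, -4.18 and -4.18 treated. The untreated libraries nearly coincided, and the treated ones were 0.37 higher on average (SD 0.01 untreated and 0.08 treated, exact permutation p = 0.1, the smallest for n = 3 and 3). In H146 it was -4.70, -4.51 and -4.79 untreated and -3.67, -3.17, -3.75 and -3.75 treated, a difference of 1.08 (SD 0.15 untreated and 0.28 treated, exact permutation p = 0.0286, the smallest for n = 3 and 4, adjusted p = 0.2 over the 14 tests). The groups did not overlap within either line, and the H146 libraries with little rRNA lay with the other treated ones. With any H146 library left out the exact test can no longer reach 0.05, and the difference was 0.94 to 1.16. As a percentage of protein-gene TPM, MT-ND6 took 3.94%, 3.95% and 3.995% in untreated and 4.74%, 5.23% and 5.22% in treated H82. In H146 it took 3.72%, 4.22% and 3.48% untreated and 7.28%, 10.0%, 6.90% and 6.91% treated.

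MT-ND5 and MT-ND6 lie end to end on opposite strands, with 0 bases between them (MT-ND5 at chrM:12337-14148, plus strand, and MT-ND6 at chrM:14149-14673, minus strand, hg38 annotation). Their ratio was examined after the values were seen and was not tested. MT-ND5 per MT-ND6 was 1.28, 1.29 and 1.25 in untreated and 0.633, 0.641 and 0.655 in treated H82. In H146 it was 0.933, 0.848 and 0.952 untreated and 0.728, 0.619, 0.599 and 0.612 treated. The groups did not overlap in either line, and the lines, which did not overlap before treatment, overlapped after it. Whether the counting used the strand of a read is not given in the sources used here, so reads from MT-ND6 and from heavy-strand RNA antisense to it cannot be told apart.

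**Figure D4:**
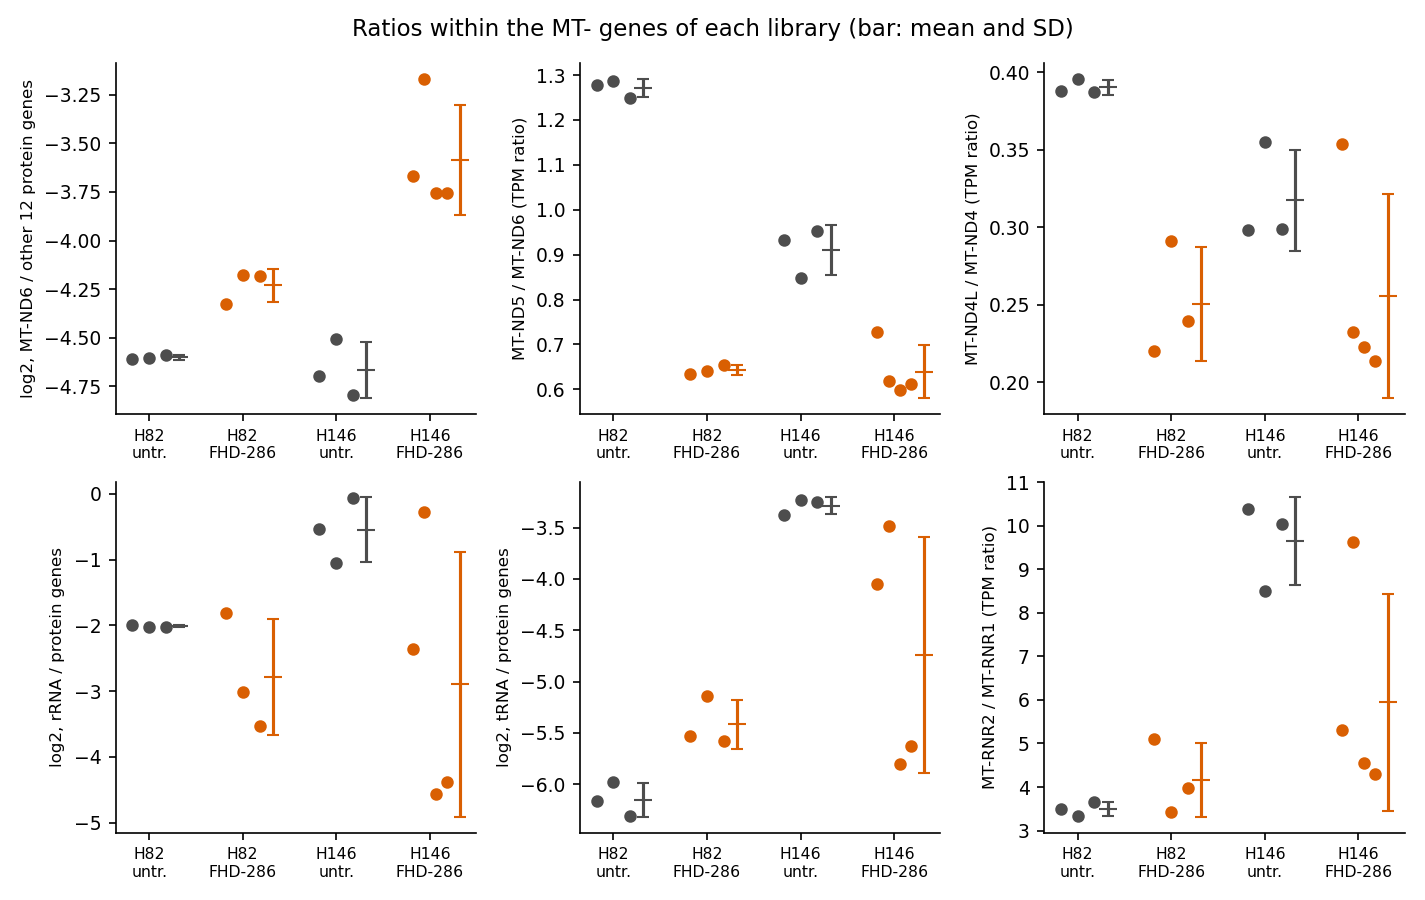
Ratios between MT- genes within each library, in 6 panels with log2 or linear axes as labelled, for untreated (grey) and FHD-286 (orange) libraries of both lines. Points are libraries and bars the mean and SD. In the upper left panel every treated library lies above every untreated one of its line, while the rRNA panels show the wide spread of treated H146 (log2 rRNA to protein ratio -4.57 to -0.28).

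Neighbouring genes also parted. MT-ND4L and MT-ND4 are carried on a shared messenger RNA and overlap by 7 bases at chrM:10760-10766 (hg38, plus strand). The stretch around the overlap is shown because the genes share it, with the shared bases in capitals and 15 bases on either side, chrM:10745-10781.

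MT-ND4L and MT-ND4: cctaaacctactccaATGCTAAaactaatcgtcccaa

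The capitals hold the start codon of MT-ND4 and, in another frame, the last codon letters of MT-ND4L. MT-ND4L per MT-ND4, in TPM, was 0.388, 0.396 and 0.387 in untreated and 0.220, 0.291 and 0.239 in treated H82, with no overlap. In H146 it was 0.298, 0.355 and 0.299 untreated and 0.354, 0.232, 0.222 and 0.214 treated, where treated replicate 1 lay inside the untreated range and the other treated libraries below it. This ratio was also chosen after the values were seen and was not tested. The other overlapping pair, MT-ATP8 and MT-ATP6, shares 46 bases, chrM:8527-8572, shown in capitals within chrM:8512-8587 as a contrast.

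MT-ATP8 and MT-ATP6: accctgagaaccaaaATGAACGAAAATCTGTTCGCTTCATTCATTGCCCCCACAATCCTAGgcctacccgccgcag

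MT-ATP8 per MT-ATP6 was 0.138 to 0.187 in untreated and 0.146 to 0.178 in treated H82, and 0.193 to 0.269 and 0.187 to 0.263 in H146, so the groups overlapped in both lines. How reads over shared bases were assigned is not given in the sources used here, and levels of MT-ND4L and MT-ATP8, the shortest protein genes at 297 and 207 bases, are the most exposed to it.

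The balance of rRNA and protein messages overlapped between the groups in both lines. The log2 rRNA to protein ratio was -1.997, -2.02 and -2.02 in untreated and -1.82, -3.02 and -3.53 in treated H82 (difference -0.77, exact permutation p = 0.4, n = 3 and 3). That difference was -1.26 without treated replicate 1 (exact permutation p = 0.1, n = 3 and 2, the smallest possible) and -0.40 without treated replicate 3 (exact permutation p = 0.7, n = 3 and 2). In H146 it was -0.53, -1.05 and -0.07 untreated and -2.36, -0.28, -4.57 and -4.38 treated (difference -2.35, exact permutation p = 0.143, n = 3 and 4), and it was -0.77 without treated replicates 3 and 4 (exact permutation p = 0.5, n = 3 and 2). MT-RNR2 per MT-RNR1 was 3.48, 3.33 and 3.67 in untreated and 5.09, 3.43 and 3.97 in treated H82. In H146 it was 10.4, 8.503 and 10.1 untreated and 5.32, 9.64, 4.55 and 4.29 treated. In 3 of the 4 treated H146 libraries the ratio lay below the untreated range, and treated replicate 2 lay inside it. Whether libraries were made by selecting polyadenylated RNA or by depleting rRNA is not given in the sources used here, and its part in the rRNA values was not tested.

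The tRNA genes were almost without reads except MT-TP. Of 22 tRNA genes, 12 were listed at 0 in all 13 libraries, and a count of 0 allows up to 3 reads per library. MT-TP held 99.5% of all tRNA reads, and no other tRNA gene passed 15 reads in a library. MT-TP is a light-strand gene at chrM:15956-16023 (hg38, minus strand) that borders the control region, which runs for 1122 bases to MT-TF around the circle. It is shown as the tRNA that carries the class, with its anticodon in capitals.

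MT-TP: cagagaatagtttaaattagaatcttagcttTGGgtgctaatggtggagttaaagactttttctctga

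MT-TP, the highest tRNA in both lines, had 2425, 3013 and 2195 TPM in untreated and 2440, 3016 and 2782 in treated H82. These ranges overlapped and the gene did not pass the test (log2 fold change 0.12, adjusted p = 0.707, limma). In H146 it had 4759, 5952 and 3840 TPM untreated and 5451, 3282, 1082 and 718 treated. Treated replicates 3 and 4, the libraries low in rRNA, were also the low ones for MT-TP (log2 fold change -1.31, adjusted p = 0.123, limma, and -0.17 without them). Without treated replicate 1 the gene passed as lower (-1.80, adjusted p = 0.0271, limma). The log2 tRNA to protein ratio, which is in effect that of MT-TP, was -6.17, -5.98 and -6.31 in untreated and -5.53, -5.14 and -5.58 in treated H82, with every treated library above (difference 0.74, exact permutation p = 0.1, n = 3 and 3). In H146 every treated library lay below, at -4.05, -3.49, -5.80 and -5.63 against -3.38, -3.23 and -3.25 (difference -1.46, exact permutation p = 0.0857, n = 3 and 4), and the difference was -0.49 without treated replicates 3 and 4 (exact permutation p = 0.1, n = 3 and 2).

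Of the other tRNAs, MT-TC, MT-TY and MT-TF were called in a line, all on a handful of reads. MT-TC and MT-TY, the tRNAs for cysteine and tyrosine, are light-strand neighbours at chrM:5761-5826 and chrM:5826-5891 (hg38, minus strand) that share base 5826. They are shown because they are a light-strand pair whose summed reads were higher in every treated library, with anticodons in capitals.

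MT-TC: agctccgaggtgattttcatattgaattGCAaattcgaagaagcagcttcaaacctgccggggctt

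MT-TY: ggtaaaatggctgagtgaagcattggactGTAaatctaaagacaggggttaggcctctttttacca

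MT-TC had 0, 0 and 0 reads in untreated and 3, 2 and 2 in treated H82, and passed the level for testing through the treated libraries alone, so it had to differ there. No fold is given, since both groups are at or under 3 reads per library. MT-TY had 0, 1 and 1 reads against 11, 3 and 2 in H82 (adjusted p = 0.0833, limma). In H146 MT-TC had 1, 0 and 2 reads against 15, 5, 1 and 2 (adjusted p = 0.0869, limma, and 0.0361 without treated replicate 3), and MT-TY had 1, 1 and 1 against 6, 3, 4 and 2 (adjusted p = 0.0058, limma). Added together, a sum chosen after the values were seen and not tested, the pair had 0, 1 and 1 reads in untreated and 14, 5 and 4 in treated H82, and 2, 1 and 3 in untreated and 21, 8, 5 and 4 in treated H146. The groups did not overlap in either line. MT-TF, the tRNA for phenylalanine and the first gene of the heavy-strand transcript, had 2, 5 and 4 reads in untreated and 1, 0, 0 and 0 in treated H146. It met the level for testing through the untreated libraries, and of the treated ones only replicate 1 (1.55 TPM) reached 1 TPM. Its call therefore rests on the group that let it in, and no fold is given against libraries at 0. In H82 it had 1, 2 and 3 reads against 2, 1 and 0 (adjusted p = 0.0676, limma), which passed without untreated replicate 1 or treated replicate 1 (adjusted p = 0.0487 and 0.0262, limma). MT-TL1, the leucine tRNA after MT-RNR2, had 1, 1 and 1 reads in untreated and 0, 3, 0 and 0 in treated H146 and did not pass (adjusted p = 0.435, limma), except without treated replicate 2, when all treated libraries were at 0. In H82 it had 5 reads in treated replicate 1 and 0 in the others. MT-TV, MT-TM, MT-TS2, MT-TE and MT-TT had no more than 1 read in any library.

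Nuclear copies of mitochondrial sequence can take reads from the MT- genes. The 20 copies in the tables summed to 1.29 to 10.2 TPM per library. The highest means were those of MTRNR2L12, MTRNR2L8 and MTRNR2L6 in H82 and of MTRNR2L12, MTRNR2L2 and MTRNR2L8 in H146. MTRNR2L12, a copy of MT-RNR2, had 3.31, 2.38 and 4.16 TPM in untreated and 1.26, 3.35, 0.102 and 0.191 in treated H146, so the libraries low in MT-RNR2 were low in it too. These genes share sequence with their source, and reads of the copies and of the MT- genes cannot be fully told apart.

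The nuclear genes that run mitochondrial gene expression were mostly not past the test. Of a list of 63 such factors, 61 were in the tables and 60 were tested in each line. In H82, 13 were lower and 6 higher, beside 45.5% lower and 13.1% higher of all genes. Their median log2 fold change was -0.10, beside -0.56 for all genes tested. In H146, 3 were lower and 17 higher, beside 15.5% and 32.5% of all genes, with a median of 0.25 beside 0.25. POLRMT, the mitochondrial RNA polymerase, rose in both lines on the TPM scale, and in H146 not by median of ratios (0.10, adjusted p = 0.518, limma). It had 95.9, 61.1 and 97.2 TPM in untreated and 124, 145 and 171 in treated H82 (log2 fold change 0.80, SE 0.22, adjusted p = 0.0187, limma). In H146 it had 70.1, 76.7 and 78.8 TPM untreated and 106, 98.6, 104 and 93.0 treated (log2 fold change 0.41, SE 0.11, adjusted p = 0.0124, limma). The call was lost without untreated replicate 2 or treated replicate 3 of H82 (adjusted p = 0.0626 and 0.0592, limma), and without untreated replicate 1 of H146 (adjusted p = 0.0673, limma).

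TFAM, which packages mitochondrial DNA and opens its promoters, rose in H146, from 35.2, 32.9 and 32.4 TPM to 54.7, 46.1, 75.2 and 82.1 (log2 fold change 0.89, SE 0.20, adjusted p = 0.00738, limma). In H82 it had 98.3, 122 and 99.5 TPM against 52.8, 84.5 and 95.2, with no overlap but without passing (log2 fold change -0.49, adjusted p = 0.116, limma), though it passed as lower by quantile normalization (-0.56, adjusted p = 0.0205, limma) and by TPM over nuclear genes (-0.64, adjusted p = 0.049, limma). TFB2M, the promoter-melting factor, TEFM, the elongation factor, LRPPRC, which stabilises mitochondrial messages, and NRF1, a nuclear regulator of these genes, did not pass in either line on the TPM scale. In H82 LRPPRC passed as higher by median of ratios (0.39, adjusted p = 0.0278, limma) and TEFM as lower by TPM over nuclear genes (-0.53, adjusted p = 0.0233, limma). Their TPM log2 fold changes ran from -0.56 (NRF1 in H82) to 0.25 (TEFM in H146). PPARGC1A, a coactivator of mitochondrial biogenesis, was below 1.2 TPM in every library and was not tested.

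The largest rises among factors in H82 were DDX28 (1.31), HSD17B10 (1.17), a subunit of the enzyme that cuts tRNA 5' ends, and SSBP1 (0.90), which binds single-stranded mitochondrial DNA. The largest falls there were PTCD2 (-1.07), GABPA (-0.92), a transcription factor of nuclear genes for mitochondria, and FASTKD1 (-0.87). In H146 the largest rises were FASTK (1.43), whose mitochondrial form protects MT-ND6 RNA, TWNK (1.20), the mitochondrial DNA helicase, and RNASEH1 (1.14). The largest falls in H146 were ESRRA (-0.88), TFB1M (-0.82), which methylates 12S rRNA, and REXO2 (-0.46). Of these, FASTKD1 lost its call without untreated replicate 2 of H82, SSBP1 when any H82 library other than treated replicate 1 was left out, TFB1M without untreated replicate 2 or 3 and REXO2 without untreated replicate 1 or 3 of H146. By median of ratios FASTKD1 and GABPA did not pass (adjusted p = 0.114 and 0.0597, limma), nor PTCD2 by quantile normalization (adjusted p = 0.437, limma).

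The mitochondrial ribosomal proteins, which assemble with the rRNAs, were mostly higher in treated H82. Of 77 tested in each line, 48 were higher and 1, MRPS25 (-0.51), was lower in H82, beside 13.1% higher and 45.5% lower of all genes, with a median of 0.70 beside -0.56. MRPS25 lost its call by median of ratios (-0.03, adjusted p = 0.846, limma), by quantile normalization (-0.26, adjusted p = 0.0883, limma) and when any 1 untreated library was left out. The largest rises were MRPL24 (1.88), MRPL41 (1.79) and MRPL2 (1.68). In H146, 13 were higher and 8 lower, beside 32.5% and 15.5% of all genes, with a median of 0.06 beside 0.25. MRPL28 (1.60), MRPL24 (1.53) and MRPL53 (1.29) had the largest positive changes there. MRPL53, at 0.357 to 0.575 TPM untreated, reached the level for testing through its treated libraries alone. MRPL48 (-1.25), MRPL33 (-0.62) and MRPS18B (-0.49) fell most, and MRPS18B lost its call with no filter (adjusted p = 0.0527, limma) and without untreated replicate 1 or 3. By median of ratios, 1 factor was lower and 23 higher in H82 and 12 lower and 10 higher in H146. The ribosomal proteins were then 0 lower and 68 higher in H82 and 31 lower and 6 higher in H146. Over all genes that scaling gave 6499 lower and 4793 higher of 19770 in H82, and 4917 and 4165 of 19585 in H146. The counts also moved with single libraries. Without treated replicate 1 of H82, 20 factors in place of 6 were higher, beside 3503 of 19058 genes in all. Without any single untreated H82 library 6 factors in place of 13 were lower, as the lower calls over all genes went from 8996 to between 4291 and 4440. Without treated replicate 2 of H146, 24 ribosomal proteins in place of 13 were higher, beside 7480 of 19053 genes in all. Without treated replicates 3 and 4 of H146, 18 ribosomal proteins in place of 8 were lower, beside 2969 of 17917 genes.

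**Figure D5:**
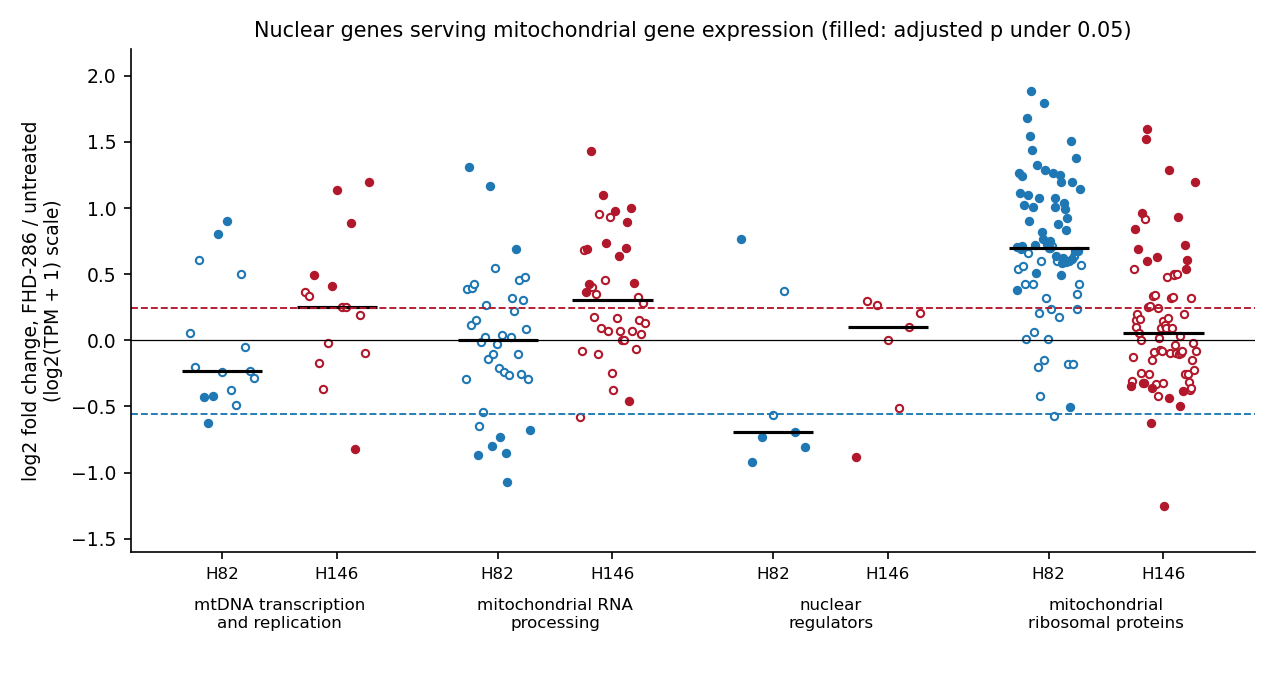
Log2 fold change with FHD-286 of each nuclear gene tested, by role and line (blue H82, red H146). Points are genes, filled where the adjusted p was under 0.05, black bars are medians of a role and dashed lines the medians of all genes in each line (-0.56 and 0.25). The mitochondrial ribosomal proteins of H82 lie mostly above zero (median 0.70).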

How the data were processed

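RNA isolation, library preparation and sequencing were done at a service laboratory. Per the labels and the methods, the authors mapped reads to hg38, counted genes with STAR and the GENCODE 28 annotation, and used DESeq2 for their own comparisons. The paper gives trimming with Trim Galore 0.4.4 for its ATAC-seq reads, and its RNA-seq section names no trimming. The authors deposited 1 table of TPM per line. Poly(A) selection or rRNA depletion, strand and read pairing are not given in the sources used here. Depth is not part of the tables and was only estimated, from annotated gene lengths. TPM times gene length (GENCODE 44, whose chrM genes are on the same hg38 sequence of 16569 bases) gave whole multiples of 1 step per library for every MT- gene (largest distance 8.2e-05, tolerance 0.001), which were taken as reads; a unit may be a read pair. Intervals and limits from counts cover counting error only.

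Libraries were grouped by line and treatment as labelled. Treated and untreated were compared within each line with limma 3.58.1 in R 4.3.3 (lmFit, eBayes with trend) on log2(TPM + 1), for every gene that reached 1 TPM in 3 or more libraries, with Benjamini-Hochberg adjustment over all genes and a threshold of 0.05, and the lines by an interaction term. It was tested on simulated data. Shares and ratios were compared by two-sided exact permutation tests. The members, lists and tests were chosen with earlier results of these data known. Every protein and rRNA gene is named, and of the tRNAs those past the threshold in a line and the highest. The 12 lowest tRNAs are tied at 0 and given as a count, and the other tRNAs with reads were named after their values were seen. Of the nuclear lists, POLRMT, TFAM, TFB2M, TEFM, LRPPRC, PPARGC1A and NRF1 are named whatever they did (SLIRP was not found under that symbol), with the 3 largest rises and falls past the threshold per list and line, and of the nuclear copies the 3 highest per line. Same-numbered libraries did not deviate together (correlations of deviations -0.111 to 0.027), which gave no sign of pairing but cannot exclude it. Sequences are from hg38. Alternatives were other pseudocounts, filters and scalings, a replicate block and leaving out each library.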

Additional observations from a re-analysis of the deposited data

Results flagged for a closer look

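Among 30 values of the treated H146 libraries, 4 had a library far from the others by Dixon's test at the 95% level, where chance gives about 1 in 20. The gap divided by the range was 1.0 for MT-TF, which had 1 read in treated replicate 1 and 0 in the others, and 1.0 for MT-TL1, which had 3 reads in treated replicate 2 and 0 in the others. It was 0.858 for the ratio of MT-ND6 to the other protein genes, where treated replicate 2 was the highest. It was 0.87 for MT-ND4L per MT-ND4, where treated replicate 1 was the highest.

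The change with FHD-286 differed between the lines by the interaction test for 4 complex I genes, by 2.325 for MT-ND1, 1.906 for MT-ND5, 1.652 for MT-ND2 and 1.436 for MT-ND6 (log2, H146 minus H82). The log2 tRNA to protein ratio was higher in every treated library of H82 (difference 0.7372) and lower in every treated library of H146 (difference -1.457), and the difference between the lines was not tested.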

How the results depend on the processing

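The H82 share and the other ratios kept their direction under every alternative run. The H146 share of TPM turned to 0.887 over protein genes alone and to 0.84 without treated replicates 3 and 4, an alternative chosen after seeing the data. The MT-ND6 to heavy-strand protein ratio in H146 was 0.984 as a difference of medians (exact permutation p = 0.0571, n = 3 and 4), 1.25 without those libraries and 0.94 to 1.16 with 1 library left out, where the exact test cannot pass. MT- genes lower in H82 numbered 1 with no filter, 8 with a mean over 2 TPM, 1 by median of ratios, 3 by quantile normalization, 8 without the variance trend and 3 to 10 with 1 library left out. Over all genes, 9855 of 37980 were lower with no filter and 7039 of 16687 with a mean over 2 TPM. Of 19770 genes, 6499 were lower by median of ratios, 4859 by quantile normalization and 8928 without the trend. With 1 library left out it was 4291 of 16364 to 9957 of 19058. MT- genes higher in H82 numbered 2 by median of ratios, 2 by quantile normalization and 0 to 1 with 1 library left out. Those calls over all genes were 4793 and 5256 of 19770, and 1676 to 3503 with 1 library left out. In H146, MT- genes higher numbered 1 by median of ratios, 5 without treated replicates 3 and 4 and 1 to 6 with 1 library left out, and those lower 1 to 4. Over all genes the higher calls were 4165 of 19585, 4662 of 17917 and 4287 to 7480, and the lower ones 1812 to 3729. The lines differed for 2 MT- genes by median of ratios, MT-ND1 and, with the opposite sign, MT-TP. Among all 24374 genes 7514 differences were then called positive and 6216 negative. The cause was not tested, other than fewer libraries in the fits that left some out.

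Factors lower in H82 numbered 1 by median of ratios, 6 by quantile normalization and 6 to 15 with 1 library left out, and factors higher 23, 17 and 3 to 20. In H146, factors lower numbered 12, 8 and 1 to 5, and factors higher 10 by median of ratios, 10 without treated replicates 3 and 4 and 10 to 25. Ribosomal proteins lower in H82 numbered 0 by median of ratios, 0 by quantile normalization, 2 with a mean over 2 TPM, 4 by TPM over nuclear genes, 2 without the trend and 0 to 2 with 1 library left out. In H146, those lower numbered 5 with no filter, 31 by median of ratios, 15 by quantile normalization, 4 without the trend, 18 without treated replicates 3 and 4 and 2 to 9, and those higher 8 with no filter, 6 by median of ratios, 7 without treated replicates 3 and 4 and 7 to 24. Over all genes H146 gave 3042 lower and 5803 higher of 40184 with no filter, and 2956 lower of 19585 without the trend. In H82, TPM over nuclear genes gave 10473 of 20766 lower. The other all-gene counts are given above.

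Some genes that did not pass changed sign. By median of ratios, H82 gave 0.23 for MT-ATP6, 0.23 for MT-ATP8, 0.28 for MT-CO2, 0.34 for MT-ND3 and 0.23 for MT-ND6, and H146 -0.0032 for MT-ATP6, -0.032 for MT-ND2 and -0.073 for MT-ND3. By quantile normalization, H82 gave 0.40 for MT-ATP6, 0.057 for MT-CO1, 0.36 for MT-CO2, 0.087 for MT-ND3 and -0.35 for MT-TP, which was -0.037 by TPM over nuclear genes. With 1 library left out, MT-ATP8 in H82 ran from -0.50 to 0.049 and MT-ND3 in H146 from -0.026 to 0.59, each changing sign without treated replicate 1. MT-TL1 in H146 was 0.032 without treated replicates 3 and 4.

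Of the nuclear factors with changes near 0, H82 gave 0.39 for LRPPRC (which passed there, adjusted p = 0.0278, limma), 0.080 for TEFM and 0.44 for TFB2M by median of ratios and 0.17 for TEFM by quantile normalization. H146 gave -0.25 for LRPPRC, -0.30 for NRF1, -0.028 for TEFM and -0.13 for TFB2M by median of ratios, -0.030 for LRPPRC, -0.18 for NRF1 and -0.015 for TEFM by quantile normalization, and -0.013 for NRF1 by TPM over nuclear genes. Without treated replicates 3 and 4 it gave -0.12 for LRPPRC, -0.21 for NRF1, -0.0014 for TEFM and -0.19 for TFB2M. With 1 library left out, LRPPRC in H146 ran from -0.018 to 0.16, NRF1 in H146 from -0.080 to 0.098 and TFB2M in H82 from -0.17 to 0.17.

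The labels do not pair same-numbered libraries, and the data gave no sign of pairing but cannot exclude it. With the replicate number as a block, the MT-ND6 ratio of H146 was 1.13 (exact permutation p = 0.25, 3 pairs), 2 MT- genes were lower in H82 and 5 higher in H146. Over all genes the block gave 8625 of 19770 lower in H82, and 2377 lower and 4749 higher of 19585 in H146. In H146 the block gave 9 factors higher, 4 ribosomal proteins lower and 8 higher, and changes of -0.018 for LRPPRC and -0.080 for NRF1, and POLRMT (adjusted p = 0.0619, limma) and REXO2 (adjusted p = 0.0531, limma) lost their calls. Few reads limit every tRNA other than MT-TP.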
